A study of Danio rerio with 2 samples.

Results

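Receptors for neurotransmitters were examined in zebrafish embryos that carried an inducible leukemia fusion gene. Members were the genes whose symbol in the array annotation began with the letters used for GABA, glycine, glutamate, acetylcholine, serotonin, dopamine or adrenergic receptors. The rule found 72 genes with 111 probes, of 27909 genes and unnamed targets with 43553 probes in all. Of the 72 genes, 37 encode subunits of ligand-gated channels and 32 encode G protein-coupled receptors. The remaining 3 names are not receptors: grina, named after a protein associated with the NMDA receptor, adrbk2, now grk3, a kinase of beta-adrenergic receptors, and grinl1a, a locus named after the NMDA receptor.

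Neurotransmitter receptors receive the chemical signal that one neuron sends to another neuron, a gland or a muscle fiber. Ligand-gated channels are built from several subunits around a pore and act fast: AMPA, kainate and NMDA receptors and most nicotinic receptors let cations in and excite the cell, while GABA-A and glycine receptors pass chloride. G protein-coupled receptors act more slowly through second messengers. In a young larva the nicotinic receptor of the muscle carries the command to swim, and glycine receptors of hindbrain and spinal cord pattern the swimming rhythm.

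The transgenic (Tg) embryos were of the F2 of the line Tg(RE:HSE:EGFP), in the AB background, whose transgene carries human RUNX1-Evi-1 and EGFP on either side of a heat shock promoter. The control embryos were wild type (WT) AB. Both groups received a heat shock of 38 °C, lasting 1 hour, in a window from 14 to 18 hpf according to the labels. The study's methods for the arrays name a single time within this window. Both groups were collected at 72 hpf. Total RNA of embryos was hybridized to one-colour Agilent arrays, with 1 array analysed here for each group. The study's methods describe RNA of embryos, while its results speak of differing genes in blood cells. The RNA is read here as that of whole embryos. The heat shock promoter is not confined to a tissue, no selection of F2 embryos by EGFP is described for the arrays, and no probe is named for the human fusion gene or EGFP, so induction could not be checked on the arrays. The number of pooled embryos is unstated in the sources used here.

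With 1 array for each group there was no spread between embryos, no test was possible and no p-value is given. The study states triplicate analysis, and whether a deposited value is a mean is unstated in the sources used here. The spread between different probes of the same gene served as the error measure at hand: among 5772 genes with several probes above background on both arrays, the differences between the arrays varied around their gene's mean with an SD of 0.28 on the log2 scale. That is an error of probes, not of animals. Differences are given as the Tg-labelled array minus the WT-labelled array. For hdac4 and h1fx this direction opposes the study's, which has both genes higher in transgenic larvae: the brighter hdac4 probe was at 11.03 on the Tg-labelled array and 11.37 on the WT-labelled array, and the brighter h1fx probe at 10.34 and 11.46 in the same order. The other hdac4 probe was at 6.70 on the Tg-labelled array and 7.88 on the WT-labelled array, and the study lists neither pair of hdac4 values. The other h1fx probe was at 10.02 on the Tg-labelled array and 11.36 on the WT-labelled array. The study lists this same pair of h1fx values with the groups exchanged, so the labels of the arrays may be exchanged. The erythrocyte factor gene gata1a, which the study describes as lower in transgenic embryos, runs the way of the labels. Its brighter probe was at 9.20 on the Tg-labelled array and 10.15 on the WT-labelled array, and its other probe differed by -0.29. Of 14 listed erythrocyte genes, 13 had a difference below 0, beside 8657 of all 16601 genes and targets above background. Some of the 13 lie within the probe SD, such as hbbe1.1 at -0.001. Among the 13 is tal1, also called scl, which the study has slightly higher in transgenic embryos at an earlier age. At 10.62 on the Tg-labelled array and 12.03 on the WT-labelled array, tal1 runs against the labels. The study also has a further histone deacetylase and pu.1 higher, and runx1 and mpo lower, in transgenic larvae at the age of the arrays. Those genes were not part of this check. The values given here do not settle which labelling is right, and every direction below is that of the labels. With exchanged labels each sign would turn.

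The probes of most receptor genes were too dim to measure in RNA of whole embryos. A probe was counted as above background when its log2 signal passed 6.69. This limit was set on each array separately and is equal on both after rounding. It was the 95th percentile of 182 probes for receptors of odors, tastes and trace amines, which few cells of an embryo use. Of the 72 genes, 21 had a probe above this limit on 1 array or both, or 29.2%, against 59.5% of all genes and targets. On both arrays 12 genes were above the limit, 7 only on the Tg-labelled array, 2 only on the WT-labelled array and 51 on neither. The share was 37.8% for channel subunits, with 14 of 37, and 18.8% for G protein-coupled receptors, with 6 of 32. The channel genes had 62 probes and the G protein-coupled receptor genes 46. Of matched genes with 1 probe, 20.9% were above the limit, and of those with several, 41.4%. The part of probe number in these shares was not tested. Nicotinic subunits were above the limit most often by count, with 7 of 12 genes. The 51 genes below the limit had signals of 5.28 to 6.60 on the Tg-labelled array and 5.27 to 6.53 on the WT-labelled array. In RNA of whole embryos, few cells with a receptor, little of its RNA per cell and a probe that reads it poorly cannot be told apart. Probes of the same gene could lie far apart, such as those of chrne at 9.32 and 5.28 on the Tg-labelled array.

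**Figure D1:**
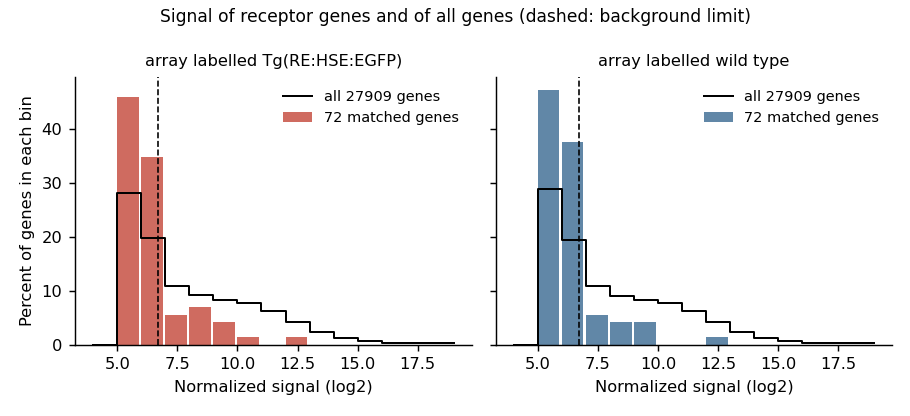
Distribution of the normalized log2 signal of the 72 matched genes (bars) and of all 27909 genes and targets (line), as percent of genes in bins of 1 log2 unit, on the Tg-labelled array (left) and the WT-labelled array (right). Most receptor genes lie left of the dashed background limit of 6.69 on both arrays. Probes differ in brightness, so the bins do not rank genes.

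At 2-fold, the receptor genes gria3a and chrna2a were higher in the Tg sample as labelled, 2 in all, and 0 were lower. Among all 16601 genes and targets above background on 1 array or both, 4.66% were at least 2-fold higher and 3.56% at least 2-fold lower. Both receptor genes are known only as bounds, since their signal on the WT-labelled array was below the limit. At 1.5-fold, 4 were higher, glra4a and chrnb3a in addition, and 1 was lower, gria1a, beside 12.3% higher and 12.6% lower of all genes. The median difference of the 12 matched genes above background on both arrays, grina included, was 0.09, and that of 14817 such genes and targets was -0.04. With genes measured on 1 array at their bound, the medians were 0.11 for the 21 matched genes, 0.10 for the 20 of them that encode receptors and -0.03 for all 16601. Of the 21 genes, 15 had a difference above 0 and 6 below it, but 9 passed the limit on 1 array only and so had to differ, and the count is not read further.

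**Figure D2:**
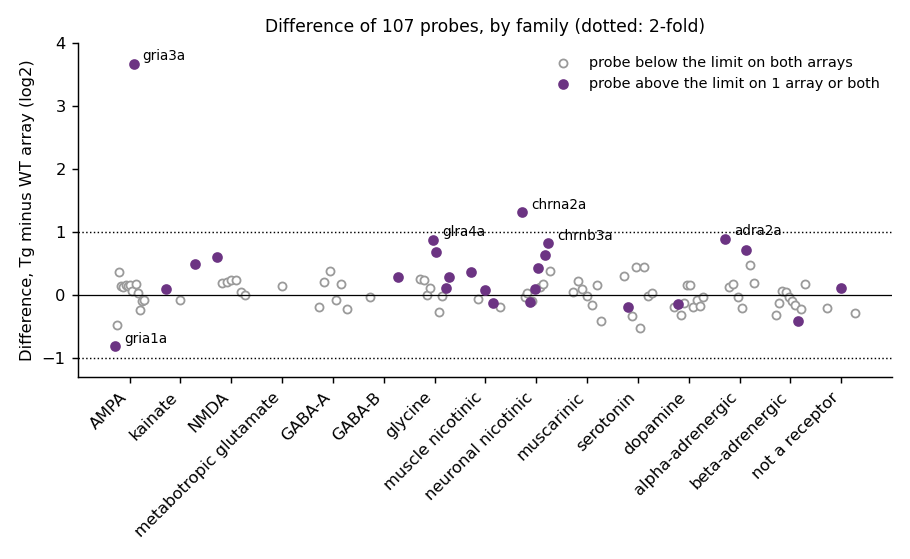
Difference between the Tg-labelled array and the WT-labelled array (log2, vertical axis) for 107 of the 111 probes, grouped by receptor family. Filled points are probes above the background limit on 1 array or both, open points are below it on both, and dotted lines mark 2-fold. Only gria3a and chrna2a lie beyond a dotted line.

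The AMPA receptor, the channel behind fast excitation by glutamate, held both the largest difference upward and the largest downward among the members. For gria3a, one of the subunits from which the AMPA channel is assembled, the signal was 9.34 on the Tg-labelled array and 5.67 on the WT-labelled array, the first well above the limit and the second well below it. The measured difference was 3.66, and set against the limit gria3a was at least 6.22-fold higher on the Tg-labelled array. It has 1 probe, at chr5:21400496-21400555 of Zv8, so no other probe can be set beside it, and its copy gria3b was below the limit on both arrays. Among all genes whose brightest probe was at least 2-fold higher and that had several probes above background, every such probe reached 2-fold for 114 of 277, or 41.2%. For genes with a single probe, such as gria3a, this agreement was not tested.

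The subunit gene gria1a pointed the other way, with 6.70 on the Tg-labelled array and 7.51 on the WT-labelled array, a difference of -0.81 or 1.76-fold. The value on the Tg-labelled array lies just above the limit. Among 2391 genes above background on both arrays with a mean signal within 0.5 log2 units, 2.76% were at least as far down. This set leaves out genes whose signal on the Tg-labelled array fell below the limit, near which gria1a lies. The filter therefore lowers the share, which is not read further. The other gria1a probe was below the limit on both arrays, at 5.89 on the Tg-labelled array and 6.37 on the WT-labelled array, and differed by -0.48 in the same direction. The other 6 AMPA genes (gria1b, gria2a, gria2b, gria3b, gria4a and gria4b) were below the limit, with differences of -0.24 to 0.37.

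Of the kainate receptors, which act at both sides of glutamate synapses, grik1a was at 7.47 on the Tg-labelled array and 7.38 on the WT-labelled array, a difference of 0.09 that is smaller than the probe SD. Its partner grik5, which forms channels only together with other kainate subunits, was at 6.99 on the Tg-labelled array and 6.49, below the limit, on the WT-labelled array. The bound was 1.22-fold. For NMDA receptors, which need both glutamate and a depolarized membrane to open, the obligatory subunit gene grin1a was at 6.71 on the Tg-labelled array and 6.11 on the WT-labelled array. The first value lies just above the limit, so grin1a was at least 1.01-fold higher, and its measured difference of 0.59 rests on a signal below the limit. The copy grin1b, with 5 probes, the NMDA gene grin2ab and the metabotropic glutamate receptor gene grm1a were below the limit on both arrays.

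Among the inhibitory channels, 2 of 6 glycine receptor genes passed the limit. The GABA-A genes matched by symbol and described here did not. In contrast, 3 probes described as GABA-A subunits but without a matching symbol did and are given among the other observations. The brightest of these 3 is described as a partial match of 3%. For glra4a, an alpha subunit that binds glycine, the signal was 9.90 on the Tg-labelled array and 9.02 on the WT-labelled array, a difference of 0.88 or 1.84-fold. A further probe, whose start lies 15535 bases away, was at 7.59 on the Tg-labelled array and 6.90 on the WT-labelled array and differed by 0.69. Both probes were thus higher on the Tg-labelled array by more than the probe SD, at chr14:40864930-40864989 and chr14:40880465-40880524 of Zv8. Of 2311 genes of similar signal, 6.53% were at least as far up as glra4a. The beta subunit gene glrbb, which in mammals anchors the receptor to gephyrin at the synapse, was at 8.08 on the Tg-labelled array and 7.96 on the WT-labelled array. Its probes differed by 0.11 and 0.29, the first below the probe SD and the second about equal to it.

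The other glycine receptor genes (glra1, glra3, glra4b and glrba) stayed below the limit, with 5.28 to 5.91 on the Tg-labelled array and 5.37 to 5.67 on the WT-labelled array. So did the GABA-A genes gabra6a, gabrb2 (now gabrb2a) and gabrr1, at 5.68 to 6.60 on the Tg-labelled array and 5.87 to 6.39 on the WT-labelled array. The GABA-B receptor gene gabbr1a, whose product pairs with a GABBR2 subunit in mammals, was at 6.96 on the Tg-labelled array and 6.68, just below the limit, on the WT-labelled array.

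Nicotinic acetylcholine receptors were the family with most members above background. At the muscle, 3 of 4 subunit genes were measured on both arrays, and none of them differed by 1.5-fold. For chrna1, the alpha subunit that binds acetylcholine, the signal was 10.25 on the Tg-labelled array and 9.88 on the WT-labelled array, a difference of 0.37, somewhat above the probe SD. For chrnd, the delta subunit, it was 8.55 on the Tg-labelled array and 8.48 on the WT-labelled array. For chrne, the epsilon subunit of the mature receptor in mammals, it was 9.32 on the Tg-labelled array and 9.44 on the WT-labelled array. The other chrne probe, below the limit on both arrays, differed by -0.19. The differences of chrnd and chrne, 0.07 and -0.12, were smaller than the probe SD. The beta subunit gene chrnb1 was below the limit, with 6.29 on the Tg-labelled array and 6.35 on the WT-labelled array.

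Markers of skeletal muscle were read beside these subunits. Of the 27 listed muscle genes on the array, 26 were above background on both arrays. Past 2-fold, 9 of them were higher on the Tg-labelled array and 1 was lower, and the median difference was 0.79. Over all genes and targets above background, 4.66% were at least 2-fold higher and 3.56% lower. The summed signal of the list was 21.01 on the Tg-labelled array and 20.40 on the WT-labelled array (log2 of the sum). The 3 muscle receptor subunits had a median difference of 0.07. The part of muscle content in the receptor values was not tested.

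Of the neuronal nicotinic subunits, chrna2a passed 2-fold. Its brighter probe, at chr17:6036660-6036719 of Zv8, was at 7.88 on the Tg-labelled array and 6.57 on the WT-labelled array, and the bound was at least 2.27-fold. The other chrna2a probe, 311 bases away, was below the limit on both arrays, at 5.88 on the Tg-labelled array and 5.91 on the WT-labelled array and differed by -0.04. At the 99th percentile of the same 182 probes, which gave limits of 7.84 on the Tg-labelled array and 8.26 on the WT-labelled array, chrna2a was above on the Tg-labelled array only and had no bound, while gria3a remained at least 2.11-fold higher.

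The accessory subunit gene chrnb3a was at 8.61 on the Tg-labelled array and 7.97 on the WT-labelled array, a difference of 0.64 or 1.56-fold. Its other probe differed by 0.82, but the probes share 50 bases and are close to the same measurement. Of 2548 genes of similar signal, 12.05% were at least as far up. For chrna5, a further accessory subunit, the signal was 8.84 on the Tg-labelled array and 8.75 on the WT-labelled array, and its probes differed by 0.09 and 0.42. The gene chrna4, now chrna4b, whose product forms the main high-affinity nicotine receptor of the mammalian brain together with a beta subunit, was at 6.59 on the Tg-labelled array and 6.71 on the WT-labelled array. Both lie about at the limit. The genes chrna2b, chrna6, chrna7 (now chrna7a) and chrnb3b were below it on both arrays.

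**Figure D3:**
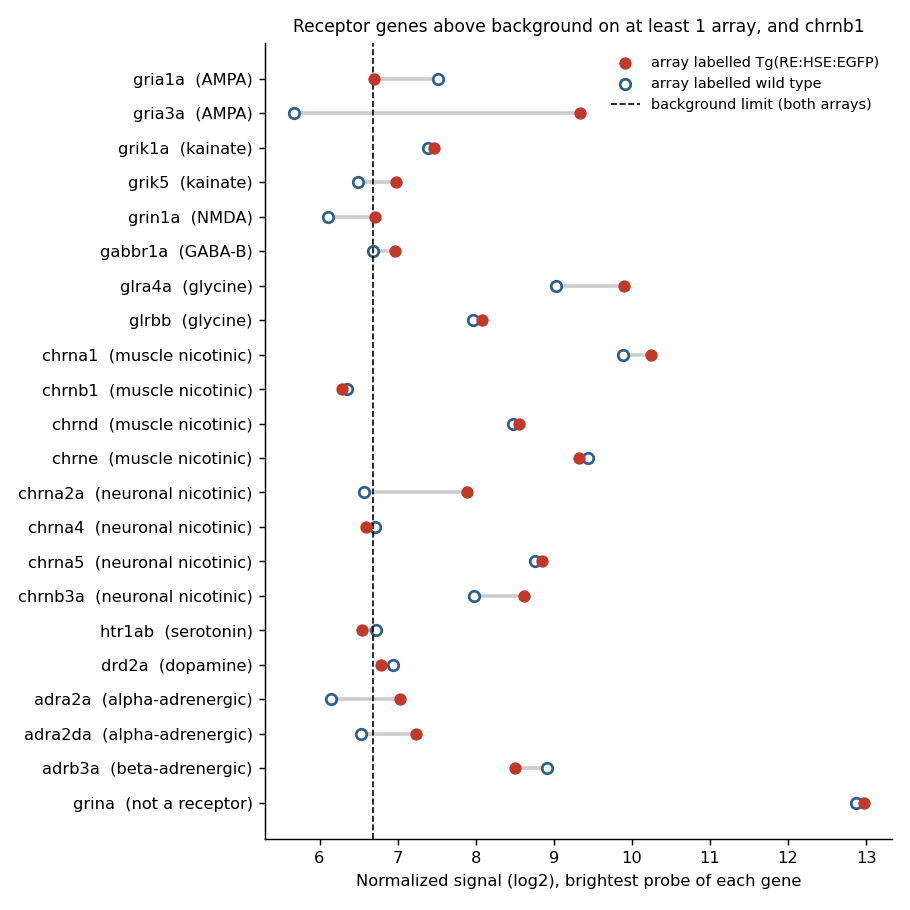
Normalized log2 signal (horizontal axis) of the 21 genes above background on at least 1 array, and of chrnb1, on the Tg-labelled array (filled) and the WT-labelled array (open), 1 value each for the brightest probe of the gene. The dashed line is the background limit of 6.69. The longest gap is that of gria3a, 9.34 on the Tg-labelled array and 5.67 on the WT-labelled array. Signals of different genes cannot be ranked, since probes differ in brightness.

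G protein-coupled receptors reached 2-fold in 0 of the 6 genes above background and 1.5-fold in 0, with genes measured on 1 array at their bound. Among all genes and targets above background, 4.66% were at least 2-fold higher and 3.56% lower. At 1.5-fold these shares were 12.3% and 12.6%. With so few receptor genes the count is not read further. The adrenergic receptors, which bind noradrenaline and adrenaline, gave 3 of the 6. Alpha-2 receptors lower cyclic AMP, and 2 of their genes were above the limit on the Tg-labelled array only. For adra2a the signal was 7.03 on the Tg-labelled array and 6.14 on the WT-labelled array, with a bound of 1.26-fold, and its dim probe differed by 0.12. For adra2da it was 7.24 on the Tg-labelled array and 6.53 on the WT-labelled array, with a bound of 1.45-fold, and its dim probe differed by 0.48. The measured differences of adra2a and adra2da, 0.89 and 0.71, are larger than 1.5-fold but rest on a signal below the limit. The beta receptor gene adrb3a, whose mammalian counterpart acts in fat tissue, ran the other way, at 8.50 on the Tg-labelled array and 8.91 on the WT-labelled array. Both adrb3a probes were lower on the Tg-labelled array, by -0.41 for the brighter and -0.23 for the one below the limit. Of 2537 genes of similar signal, 23.8% were at least as far down.

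The dopamine receptor gene drd2a, an inhibitory receptor of the brain, was at 6.79 on the Tg-labelled array and 6.94 on the WT-labelled array, and differed by -0.15, with -0.32 for its dim probe. The serotonin receptor gene htr1ab, also inhibitory, was at 6.54 on the Tg-labelled array and 6.73 on the WT-labelled array. The differences of the brighter drd2a probe and of htr1ab are within the probe SD. The other 7 dopamine and 5 serotonin receptor genes and all 5 muscarinic receptor genes were below the limit on both arrays. Of the names that are not receptors, grina (now grinab) was at 12.97 on the Tg-labelled array and 12.86 on the WT-labelled array, and adrbk2 and grinl1a were below the limit.

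Many of these genes exist as duplicated copies in zebrafish. The members held 16 pairs whose symbols differ only in the copy letter a or b, and in 11 of them exactly 1 copy was above the limit on 1 array or both. Both copies were above it in 0 pairs and neither copy in 5. Over all 1877 pairs of such symbols on the array, some of which are not duplicates, 27.3% had exactly 1 copy above the limit, 60.8% both and 11.8% neither. The members were also above the limit less often gene by gene, at 29.2% against 59.5% of all genes and targets, and the part of this in the pair counts was not tested. The detected copy was gria1a, gria3a, grin1a, glra4a, glrbb, chrna2a, chrnb3a, htr1ab, drd2a, adra2da or adrb3a. This pattern was noticed in the data. Signals of different probes cannot be ranked, so the pairs give no order of expression between copies.

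Genes that hold receptors at the synapse, clear the transmitter or pass the signal on were read from lists. Their counts past 2-fold, and those of cell type lists, are to be read beside the shares over all genes and targets above background. These shares were 4.66% higher and 3.56% lower. The list of postsynaptic scaffolds and receptor partners had 18 of 37 genes above background, with 1 at least 2-fold higher on the Tg-labelled array, 0 lower and a median difference of 0.31 over the 17 measured on both arrays. The neuronal pentraxin gene nptx1l, whose product gathers AMPA receptors in mammals, was at 8.16 on the Tg-labelled array and 7.15 on the WT-labelled array, 2.001-fold higher, while its 3 other probes, all below the limit, differed by 0.32 to 0.45. The AMPA receptor scaffold gene grip2a was at 12.80 on the Tg-labelled array and 12.09 on the WT-labelled array, but its other, dim probe differed by -0.03. The probes of pick1, which also binds AMPA receptors, differed by 0.63 and, for a dim one, -0.40. For cnih2, an auxiliary subunit of AMPA receptors, the signal was 6.70 on the Tg-labelled array and 5.87 on the WT-labelled array. The first value lies just above the limit and the second below it, so the bound for cnih2 was only 1.001-fold. Of the 18 genes, 13 had a difference above 0 and 5 below it, beside 47.8% above 0 among all genes and targets above background. Since cnih2 passed the limit on 1 array only, it had to differ, and the count is not read further. Among the 5 genes below 0 was homer2, a scaffold of metabotropic glutamate receptors, named after its values were seen. It was at 11.37 on the Tg-labelled array and 11.65 on the WT-labelled array. All 5 homer2 probes were lower on the Tg-labelled array, with differences of -0.95 to -0.28, the brightest probe at -0.28. On the same list homer1b ran the other way, at 9.96 on the Tg-labelled array and 9.42 on the WT-labelled array. Its 4 probes differed by 0.09 to 0.69. The brightest homer3b probe differed by 0.13 and its other probes by -0.26 to 0.18.

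Beside these values, the listed neuron markers had 22 of 23 genes above background, 1 at least 2-fold higher, 0 lower, and a median difference of 0.26. Their summed signal was 16.43 on the Tg-labelled array and 15.98 on the WT-labelled array. The brightest marker, tubb5, weighs most in this sum, at 15.67 on the Tg-labelled array and 14.88 on the WT-labelled array. The brightest sncb probe ran the other way, at 12.80 on the Tg-labelled array and 13.56 on the WT-labelled array, while its dimmer probes differed by 0.12 to 0.60. Markers of neural progenitors had a median difference of -0.47, with 0 of 16 at least 2-fold higher and 1 lower. The part of neuron content in the receptor and scaffold values was not tested.

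For the neuromuscular junction, 8 of 14 listed genes were above background, with 1 at least 2-fold higher on the Tg-labelled array and a median difference of 0.07. The gene past 2-fold was ldb3a, which encodes a protein of the muscle Z-disc, at 10.23 on the Tg-labelled array and 9.10 on the WT-labelled array, and its 3 probes differed by 1.03 to 1.12. The nerve-derived organizer agrn was at 7.06 on the Tg-labelled array and 7.60 on the WT-labelled array. For ache, which breaks down acetylcholine, the signal was 7.17 on the Tg-labelled array and 6.81 on the WT-labelled array. For rapsn, which clusters the muscle receptor, it was 6.39 and below the limit on the Tg-labelled array, and 6.71 on the WT-labelled array.

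Among genes of transmitter uptake and breakdown, 16 of 27 were above background and 0 passed 2-fold in either direction, with a median difference of 0.16. The 3 largest differences, all negative, were those of gldc, abat and slc6a11a. For gldc, of the glycine cleavage system, the signal was 10.999 on the Tg-labelled array and 11.96 on the WT-labelled array, and its 4 probes differed by -0.96 to -0.31. For abat, the GABA transaminase, it was 12.12 on the Tg-labelled array and 12.85 on the WT-labelled array, and for slc6a11a, a GABA transporter, 9.47 on the Tg-labelled array and 10.17 on the WT-labelled array. The monoamine oxidase gene mao was at 9.11 on the Tg-labelled array and 8.43 on the WT-labelled array, with a further probe at a difference of 0.18.

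Of the G proteins, cyclases, kinases and arrestins behind metabotropic receptors, 37 of 53 were above background. Past 2-fold, 2 of these were higher on the Tg-labelled array and 0 lower, and the median difference was -0.13. Over all genes and targets above background the shares were 4.66% and 3.56%, and the count is not read further. For prkar1b, a regulatory subunit of protein kinase A, the signal was 9.12 on the Tg-labelled array and 7.28 on the WT-labelled array, a difference of 1.84, but its 3 other, dimmer probes differed by 0.09 to 1.07. For plcb3, a phospholipase C, it was 7.74 on the Tg-labelled array and 5.93 on the WT-labelled array, at least 2.06-fold higher, and its 4 other probes differed by -0.42 to 0.51. The probes of gna11b, a G protein of the Gq family, both differed by -0.79. For arrb1, an arrestin, the signal was 6.75 on the Tg-labelled array and 5.91, below the limit, on the WT-labelled array. The bound was 1.04-fold, and the other arrb1 probe, below the limit on both arrays, differed by 0.04.

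**Figure D4:**
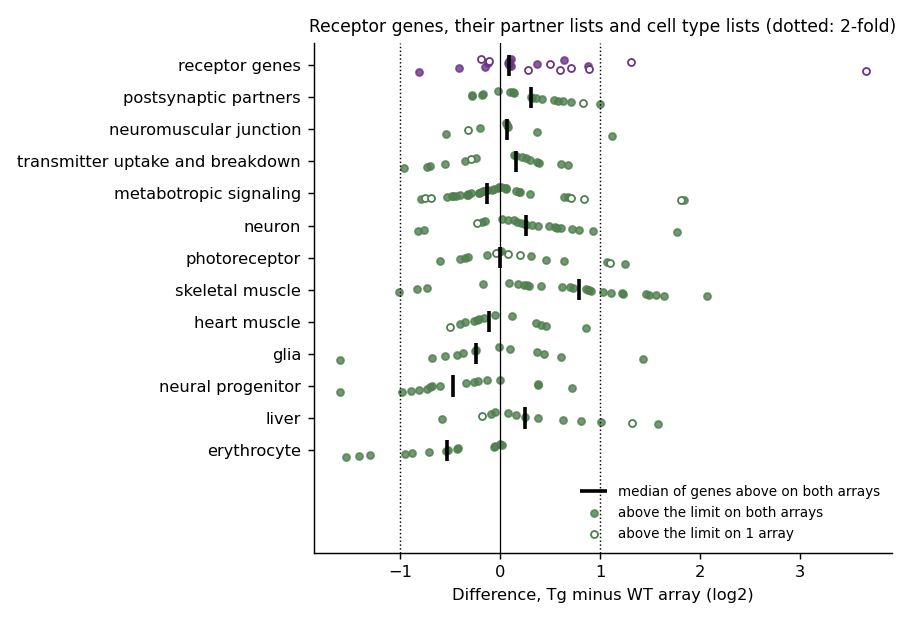
Difference between the Tg-labelled array and the WT-labelled array (log2, horizontal axis) for each gene above background, in the receptor genes, 4 lists of partner genes and 8 lists of cell type markers. Filled points were above the limit on both arrays, open points on 1, and black bars are medians over filled points. The bar of the receptor genes is at 0.09, and the skeletal muscle bar, at 0.79, is farthest to the right.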

How the data were processed

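Total RNA of 1 Tg(RE:HSE:EGFP) and 1 WT sample was measured on one-colour (Cy3) Agilent zebrafish arrays and read by the authors with Feature Extraction, of which the sources used here give no version. The values deposited by the authors are, per the file headers, normalized signals on a log2 scale, 1 for each of 43553 probes. How they were normalized is unstated in the sources used here, there are no control spots or flags, and a table of the whole series held the same values at every probe (largest difference 0). Their Pearson correlation was 0.980 across probes.

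The 75th percentile of each array was subtracted, which moved every difference by -0.001. A gene was read from the probe with the highest mean signal. A gene above the limit on 1 array was given a bound, its signal against the limit of the other array, and a gene was counted when its measured difference or bound reached 2-fold. Of the 111 probes, 94 were named through their accession in the RefSeq gene table, and 9 genes had a newer symbol. Probe positions are those of the files, whose scaffold names are of Zv8. Exons and introns of that build were not used here, nor were probe, promoter or protein sequences.

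With 1 array for each group no test across genes was run, and the number of arrays limits the precision. The steps were tested on simulated data, with changes only in bright genes and the same shift for every probe of a gene. Changes in genes near the limit, and probes of a gene that disagree, were not simulated. Named were all members past 2-fold, up to 3 members with the largest differences in each family, every muscle subunit, the names that are no receptors, and up to 4 genes of each partner list. Values of 2 members are not reported here. The genes chrna5, homer1b, homer2 and homer3b were added after their values were seen. The members and lists were chosen with earlier results of these data known. Alternatives were other scalings, limits, filters, fold thresholds, probe summaries and member rules. A value was said to move when it shifted by more than the probe SD of 0.28, and a count when it changed by more than 1.5 times. Scripts ran under Python 3.11.15 with pandas 2.3.3 and numpy 2.4.6, and figures under matplotlib 3.10.9.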

Additional observations from a re-analysis of the deposited data

How the results depend on the processing

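Scaling had little effect. Without scaling, with median centring or with quantile normalization, 2 receptor genes were at least 2-fold higher and 0 lower. The median difference of receptor genes was 0.09 each time. The values as received were already close in distribution, with medians of 7.174 on the Tg-labelled array and 7.179 on the WT-labelled array. Other scalings could therefore change little, and the authors' own normalization was not tested. The limit had more effect. At the 99th percentile of the quiet receptor probes, 11 matched genes, grina included, were above background and 1 was at least 2-fold higher. The median of the glycine receptor genes was then 0.88, which is glra4a alone, their only gene above this limit on both arrays. The median of transmitter uptake and breakdown was -0.30 and that of photoreceptor markers 0.46, both over fewer genes. With genes above background on both arrays only, 0 were 2-fold higher, because gria3a and chrna2a were above it on 1 array. At 1.5-fold, 4 were higher and 1 lower, and at 4-fold, 1 was higher. With no filter on dim probes, the medians were 0.18 for glycine, 0.15 for AMPA and 0.041 for beta-adrenergic receptors and -0.21 for the names that are not receptors, over more genes. Adding probes described as receptors without a matching symbol, an alternative chosen after seeing the data, gave 1 lower gene. Among the added probes, 1 was at least 2-fold higher and 1 at least 2-fold lower. Of the other values, 181 medians and 161 single-gene differences moved by less than the probe SD, and 30 counts of receptor genes kept within 1.5 times. Many of these single-gene differences could not move. The limit and the filter leave the difference of a gene's brightest probe unchanged, and the table of the whole series held the same values. The mean over probes took only those above the limit, so the dim chrna2a probe did not enter it. Of the counts for partner and cell type lists, most of them small, 43 moved and 221 did not. No paired analysis was possible because each group has 1 array, and no array could be left out. Depth is unknown, and signals near the limit, such as those of gria1a, grin1a, chrna4, htr1ab and gabbr1a, have little precision.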

Other observations

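The array also holds 72 probes described as neurotransmitter receptors whose symbol the rule did not match, and these were looked at after the values were seen. Of them, 7 were above background on 1 array or both, 3 of these on 1 array only. A probe described as metabotropic glutamate receptor 8, whose human counterpart dampens transmitter release, was at 8.45 on the Tg-labelled array and 5.69 on the WT-labelled array, at least 3.37-fold higher. The other probes with this description, the grm8b probe included, were below the limit on both arrays and differed by 0.15 and 0.04. A probe for a transcript similar to kainate receptor 2 ran the other way, at 5.84 on the Tg-labelled array and 8.49 on the WT-labelled array, at least 3.49-fold lower, while the 3 other probes so described were below the limit and differed by -0.19 to 0.40. A probe for a transcript similar to the serotonin-gated channel HTR3A was at 7.68 on the Tg-labelled array and 5.89 on the WT-labelled array, at least 1.97-fold higher, and its companion, below the limit, differed by 0.13. Whether probes of the same description read the same transcript was not tested.

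The remaining 4 were above the limit on both arrays. A probe described as a partial match, of 3%, to a GABA-A alpha 6 subunit was at 13.65 on the Tg-labelled array and 14.37 on the WT-labelled array. Its difference was -0.72, and whether it reads a receptor transcript was not tested. The gabra6a probe among the members was below the limit, at 5.68 on the Tg-labelled array and 5.87 on the WT-labelled array. A gabra6b probe and a further probe described as alpha 6 were also below it on both arrays, and differed by 0.54 and 0.19. A probe described as GABA-A beta 2 was at 7.20 on the Tg-labelled array and 6.86 on the WT-labelled array, a difference of 0.34. A probe similar to GABA-A beta 3 was at 7.17 on the Tg-labelled array and 7.21 on the WT-labelled array, a difference of -0.04. Further probes described as beta 3, below the limit on both arrays, included differences of 0.13 and 0.14. A probe described as similar to metabotropic glutamate receptor 4 was at 9.21 on the Tg-labelled array and 9.83 on the WT-labelled array, a difference of -0.62.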
